A study of Mus musculus with 24 samples.

Results

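The 9 genes described here encode titin (Ttn), nebulin (Neb), obscurin-like 1 (Obsl1), the myosin binding proteins Mybpc1, Mybpc2, and Mybph, and the myomesins Myom1, Myom2, and Myom3. They were chosen by gene symbol as giant proteins and M-band or thick filament proteins of the sarcomere, by a rule that uses no measured value but was set with earlier results of these data known, and they are 9 of the 56941 genes listed in the deposited RNA-seq values. All 9 passed the filter on low counts that 13315 genes passed. The cells were C2C12, a mouse myoblast line, engineered to carry the light-gated channel ChR2 fused to tdTomato and differentiated on gels with horse serum and IGF-1. Control tissues (6 libraries) carried the same channel and were not stimulated, and the other 3 groups (6 libraries each) were exercised with blue light every day for 60 min at 1 Hz, 4 Hz, or 10 Hz. All groups therefore share 1 engineered line and the same serum and growth factor. The study compared each frequency with the control. RNA came from whole wells, so fewer myotubes and less RNA per myotube cannot be told apart.

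The sarcomere is the contractile unit of striated muscle, in which thin actin filaments slide past thick myosin filaments. Titin runs from the Z-disc to the M-band and acts as a spring and a scaffold for the thick filament, while nebulin lies along the thin filament and is needed for its proper length. At the M-band, myomesins crosslink neighboring thick filaments, and obscurin-like 1 binds both titin and myomesin. Myosin binding proteins C and H sit in stripes along the thick filament, where the C proteins also regulate the movement of myosin heads. Mybpc1 is the gene of the slow skeletal form of protein C and Mybpc2 that of the fast form.

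The libraries held 8052369 to 18159144 estimated counts, and the lowest count of any of the 9 genes in any library was 481, for Myom3. Together the 9 genes took 0.197% to 0.347% of the counts of a library. Myotube markers were present in every library, with a summed level over 9 genes of 12300 to 20400 TPM, the length-corrected unit of transcript abundance, while 4 adipocyte markers added up to at most 1.04 TPM. In 4 libraries the share of counts from the mitochondrial genome exceeded that of every control (2.72% at most). These were 1 Hz replicates 4 (3.97%) and 6 (4.87%) and 4 Hz replicates 3 (8.90%) and 6 (4.34%), and each count of changed members below was repeated without them, a choice made after the data were seen.

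In unstimulated tissue the 9 genes spanned a wide range of levels on the TPM scale, which takes transcript length into account. Mybph was the most abundant, at 933 ± 64.9 TPM (SD, n = 6), and ranked 187 among the 13315 tested genes. It was followed by Myom2, whose product is also called M-protein, at 215 ± 19.3 TPM, Mybpc1 at 133 ± 18.1 TPM, and Neb at 94.4 ± 10.6 TPM. All 6 control libraries placed these 4 genes in that order, with no overlap between neighbors. Then came Mybpc2 (40.1 ± 6.74 TPM), Obsl1 (39.5 ± 3.34 TPM), Ttn (32.5 ± 4.26 TPM), Myom1 (30.1 ± 3.35 TPM), and Myom3 (25.99 ± 2.33 TPM). The control ranges of each pair of neighbors among these last 5 overlapped. The transcripts assigned to Neb and Ttn in the controls had mean lengths of 4.74 and 20.8 kb, against longest annotated transcripts of 23381 and 107543 bases. The places of Neb and Ttn in this order depend on that assignment. Mybpc3 and Mybphl, the cardiac protein C and a relative of Mybph, did not pass the filter on low counts.

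On the mouse genome GRCm39, Ttn spans 278756 bases of chromosome 2 (76534136 to 76812891, minus strand) and Neb 241828 bases of the same chromosome (52026659 to 52268486, minus strand). Their longest annotated transcripts are 107543 and 23381 bases. The other 7 genes span between 11131 bases (Mybph, chromosome 1, 134121171 to 134132301, plus strand) and 125175 bases (Myom1, chromosome 17, 71309628 to 71434802, plus strand). Myom1 overlaps Myl12a, a gene of a regulatory myosin light chain, on the opposite strand, and Myl12a held 7786 estimated counts per library on average. The library kit was a directional one, which keeps strand. The strand setting used in counting is not given in the sources used here, so it is uncertain how reads in the overlap were assigned.

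Of the myosin binding protein family, Mybph and Mybpc2 held every call against the control, and Mybpc1 held none. Mybph was lower than in the controls at 1 Hz and 4 Hz, whereas Mybpc1 and Mybpc2 were lower at 10 Hz than at the other frequencies. Any part of upstream sequence in these differences was not tested. The upstream sequences of Mybpc1, Mybpc2, and Mybph are shown as the 250 bases before the start of each gene in RefSeq (GRCm38.p6). They are chr10:88605153-88605402 (minus strand), chr7:44524670-44524919 (minus strand), and chr1:134193198-134193447 (plus strand), written 5′ to 3′ in the direction of transcription. Capitals mark the E-box letters CANNTG, which myogenic bHLH factors such as MyoD can bind, and the TATA box letters TATAAA, both searched on either strand.
Mybpc1: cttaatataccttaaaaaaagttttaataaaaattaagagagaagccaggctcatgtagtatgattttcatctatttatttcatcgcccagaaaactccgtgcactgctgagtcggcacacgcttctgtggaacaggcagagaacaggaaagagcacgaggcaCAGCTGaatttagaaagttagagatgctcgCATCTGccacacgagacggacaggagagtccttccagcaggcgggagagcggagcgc
Mybpc2: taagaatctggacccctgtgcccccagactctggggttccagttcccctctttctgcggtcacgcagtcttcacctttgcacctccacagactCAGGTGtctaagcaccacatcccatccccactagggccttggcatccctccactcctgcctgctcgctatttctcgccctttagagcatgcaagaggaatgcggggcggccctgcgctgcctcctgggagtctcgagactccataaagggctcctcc
Mybph: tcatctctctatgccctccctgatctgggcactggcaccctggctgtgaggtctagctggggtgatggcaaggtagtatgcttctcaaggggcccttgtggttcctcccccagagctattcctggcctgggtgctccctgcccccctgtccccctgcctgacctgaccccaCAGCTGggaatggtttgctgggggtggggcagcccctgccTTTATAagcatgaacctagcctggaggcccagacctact

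Mybpc1 held 2 E-boxes, starting 87 and 57 bases before the gene, Mybpc2 held 1, at 157 bases, and Mybph held 1, at 79 bases. An E-box stood in 66.2% of 32851 promoters of this length. The E-box of Mybph and the farther one of Mybpc1 read CAGCTG, a form found in 13.0% of promoters, and that of Mybpc2 read CAGGTG. Of the 3 genes, Mybph alone held TATAAA (12.4% of promoters), on the other strand and 39 bases before its start. Mybpc2 alone held the GC box GGGCGG (32.7% of promoters). None of the 3 held the MEF2-type letters CTANNNNTAG (3.2% of promoters), which were found upstream of Ttn and Obsl1. Neb and Myom2 had no entry.

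Values of each gene by library are given in CPM, estimated counts relative to library size, scaled by the TMM method, and the tests were edgeR quasi-likelihood tests with p-values adjusted over all 13315 genes by the Benjamini-Hochberg method. Mybph, the gene of myosin binding protein H, ran from 904 to 1099 CPM (median 1023) in the controls. It ran from 587 to 839 CPM (median 766) at 1 Hz, from 750 to 962 CPM (median 866) at 4 Hz, and from 914 to 1152 CPM (median 953) at 10 Hz. All 6 libraries at 1 Hz lay below every control library, whereas the 4 Hz and 10 Hz libraries overlapped the controls. The log2 fold change of Mybph was -0.46 ± 0.082 (SE) at 1 Hz, with an adjusted p of 0.000129. Stimulation at 4 Hz gave -0.24 ± 0.082 (adjusted p = 0.0155), and the value for 10 Hz was -0.054 ± 0.082 (adjusted p = 0.950). The call at 1 Hz held when any library of either group was left out, and also without the 4 libraries with a high mitochondrial share (adjusted p = 0.000157). The call at 4 Hz did not pass without those 4 libraries (log2 fold change -0.20, adjusted p = 0.0576).

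Mybpc2, the gene of fast protein C, ran from 81.0 to 118 CPM (median 86.0) in the controls and from 58.3 to 178 CPM (median 100.4) at 1 Hz. It ran from 105 to 128 CPM (median 119) at 4 Hz and from 57.3 to 68.5 CPM (median 64.7) at 10 Hz. The 10 Hz libraries were tightly grouped and lay below all controls and all 4 Hz libraries, while the 1 Hz libraries were the most scattered, with a coefficient of variation of 36.8% against 6.75% at 10 Hz. The log2 fold changes against the control were 0.27, 0.38, and -0.50 for 1, 4, and 10 Hz, each ± 0.16 (SE), and only that of 4 Hz passed (adjusted p = 0.169, 0.0452, and 0.313). The call at 4 Hz was held in only 1 of the 12 fits that left out 1 control or 4 Hz library, namely without control replicate 6 (the adjusted p of the 12 ranged from 0.0178 to 0.105). On the log2(TPM + 1) scale it was 0.062 (adjusted p = 0.752, limma), or 0.27 above the median of all genes. The value at 1 Hz depended on single libraries. It was 0.39 without replicate 3, the lowest library of that group (adjusted p = 0.0201), and 0.058 without replicate 4, the highest (adjusted p = 0.758). It turned to -0.037 without the 4 libraries with a high mitochondrial share (adjusted p = 0.844) and to -0.018 on the log2(TPM + 1) scale (adjusted p = 0.942, limma).

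Mybpc1, the gene of slow protein C, ran from 235 to 338 CPM (median 266) in the controls and from 167 to 354 CPM (median 271) at 1 Hz. It ran from 292 to 356 CPM (median 324) at 4 Hz and from 182 to 230 CPM (median 208) at 10 Hz. As with Mybpc2, every 10 Hz library lay below every control library (0.864% of all genes) and every 4 Hz library (8.1% of all genes). Against the control, the log2 fold changes were -0.0080, 0.26, and -0.39 for 1, 4, and 10 Hz, each ± 0.11 (SE), and none passed (adjusted p = 0.962, 0.0527, and 0.223). At 4 Hz it passed without control replicate 6, the highest control (log2 fold change 0.33, adjusted p = 0.0160).

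**Figure D1:**
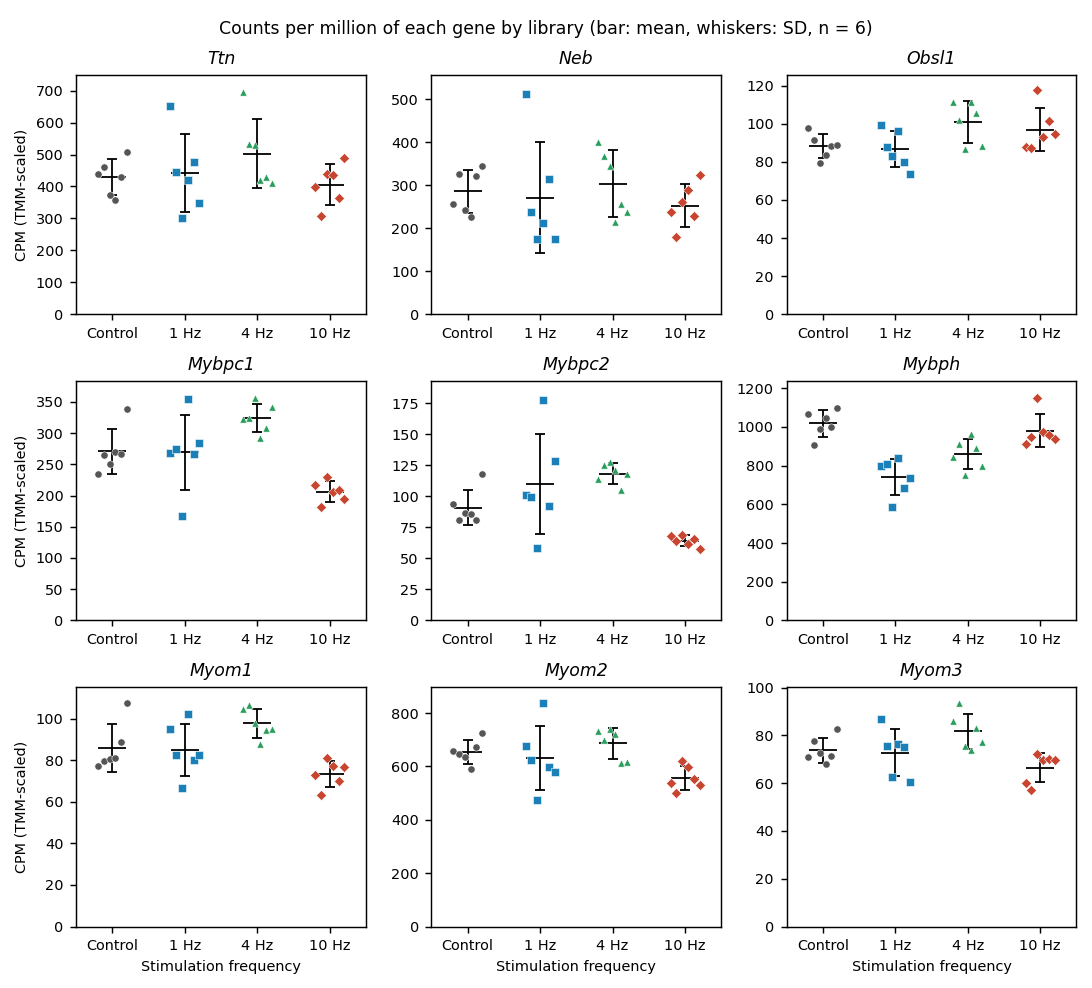
CPM (TMM-scaled, vertical axes from 0) of each of the 9 genes in each library, by stimulation frequency, with 6 libraries per group. Points are libraries, horizontal bars are group means, and whiskers are SDs. All 6 Mybph libraries at 1 Hz (587 to 839 CPM) lie below the lowest control (904 CPM), and all 6 Mybpc2 libraries at 10 Hz (at most 68.5 CPM) lie below the lowest control (81.0 CPM).

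Over the 9 genes, 0 rose and 1 (Mybph) fell at 1 Hz, where 37.3% of all tested genes were called (19.2% higher, 18.1% lower). At 4 Hz, 1 rose (Mybpc2) and 1 fell (Mybph), where 51.4% of all tested genes were called (27.5% higher, 23.9% lower). At 10 Hz, edgeR called 0 of the 9 genes, where it called 0.0376% of all genes (0.015% higher, 0.0225% lower). There, 4 of the 9 had an unadjusted p under 0.05 (Mybpc1, Mybpc2, Myom1, and Myom2, all lower), as had 1074 of the 13315 tested genes. DESeq2 also called 0 of the 9 genes. Against this background, the share of members called at 1 Hz and 4 Hz was below that of all genes. The groups did not overlap for Mybph at 1 Hz (8.58% of all genes lay wholly below the controls) and for Mybpc1 and Mybpc2 at 10 Hz (0.864% of all genes). On the log2(TPM + 1) scale, limma split its calls over all genes differently, with 488 higher and 2945 lower at 1 Hz and 795 higher and 4820 lower at 4 Hz, against 2554 and 2408 and 3664 and 3178 in edgeR. With only the 10 Hz and control libraries in the fit, Mybpc1 (adjusted p = 0.0381) and Mybpc2 (adjusted p = 0.0126) passed.

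**Figure D2:**
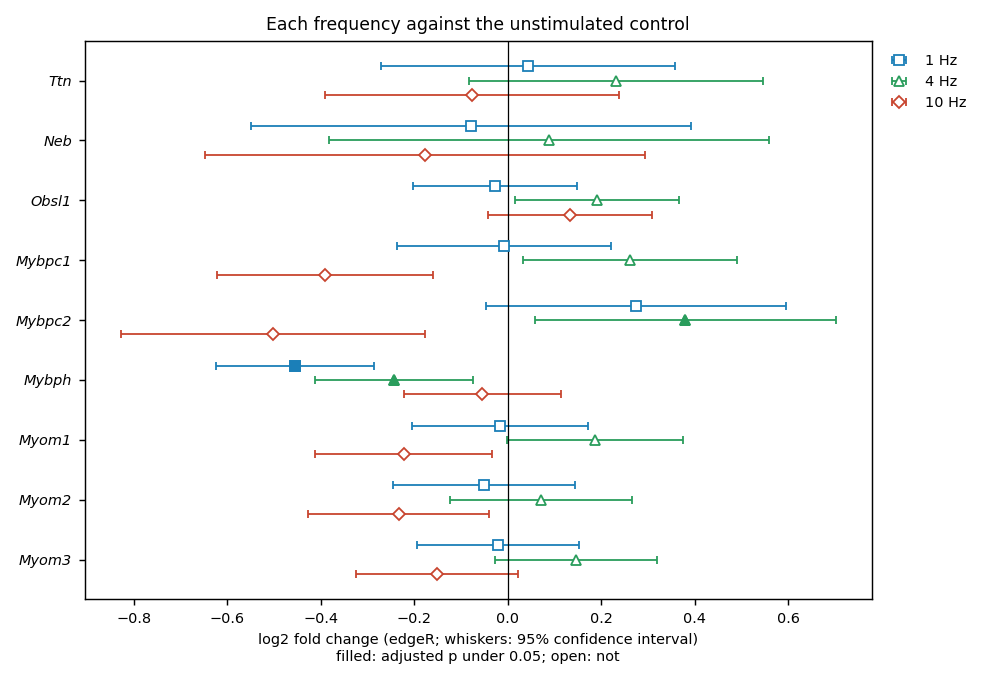
log2 fold change (horizontal axis) of each gene at 1 Hz, 4 Hz, and 10 Hz against the unstimulated control, from edgeR. Whiskers are 95% confidence intervals, and filled symbols had an adjusted p under 0.05. The filled symbols are Mybph at 1 Hz (-0.46) and at 4 Hz (-0.24) and Mybpc2 at 4 Hz (0.38), and the lowest open symbol is Mybpc2 at 10 Hz (-0.50).

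The direct comparison of frequencies in the same fit separated the family further. Mybpc1 was lower at 10 Hz than at 4 Hz by a log2 fold change of -0.65 ± 0.11 (SE, adjusted p = 5.99e-05) and Mybpc2 by -0.88 ± 0.16 (adjusted p = 0.000116). Mybph was at 0.19 ± 0.082 in that comparison (adjusted p = 0.0601). It passed in 6 of the 12 fits that left out 1 library of either group (adjusted p from 0.0191 to 0.112 over the 12), in the fit of the 2 groups alone (0.21, adjusted p = 0.0315), with DESeq2 size factors (0.21, adjusted p = 0.0327), and in DESeq2 (0.22, adjusted p = 0.0199), and it was at 0.14 without the 4 libraries with a high mitochondrial share (adjusted p = 0.180). Compared with 1 Hz, Mybpc1 at 10 Hz (-0.38 ± 0.11, adjusted p = 0.0132) and Mybpc2 (-0.78 ± 0.16, adjusted p = 0.000867) were lower, and Mybph was higher (0.40 ± 0.082, adjusted p = 0.000812). All 6 Mybph libraries at 10 Hz lay above every 1 Hz library, as 5.03% of all genes did. The Mybpc1 difference between 10 Hz and 1 Hz was lost without 1 Hz replicate 4, the highest Mybpc1 library of that group (log2 fold change -0.28, adjusted p = 0.0660), and without the 4 libraries with a high mitochondrial share (-0.25, adjusted p = 0.112). Without those 4 libraries the Mybpc2 difference was -0.47 (adjusted p = 0.00902). On the log2(TPM + 1) scale, limma still called Mybpc2 in both comparisons and Mybpc1 only against 4 Hz, and it called Mybph higher at 10 Hz than at 4 Hz (0.50, or 0.30 relative to the median of all genes, adjusted p = 0.00132).

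In total, 5 of the 9 genes were called at 10 Hz against 4 Hz, all lower, where 46.3% of all genes were called (21.9% higher, 24.4% lower). The median log2 fold change of the 9 genes was -0.30, against -0.053 over all tested genes. At 10 Hz against 1 Hz, 3 of the 9 were called, where 27.9% of all genes were (14.8% higher, 13.1% lower). For the latter pair of frequencies limma on the log2(TPM + 1) scale called 2038 genes higher and 293 lower, and at 10 Hz against 4 Hz it called 4472 higher and 688 lower. At 4 Hz against 1 Hz, edgeR called 0 of the 9 and 0.0% of all genes, and DESeq2 also called 0 of the 9. All 9 log2 fold changes were positive, between 0.11 for Mybpc2 and 0.27 for Mybpc1. Of the 9, 4 had an unadjusted p under 0.05, as had 1465 of the 13315 tested genes. Without the 4 libraries with a high mitochondrial share, Mybph passed in that last comparison (log2 fold change 0.29, adjusted p = 0.0450), and 1408 of all genes did.

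**Figure D3:**
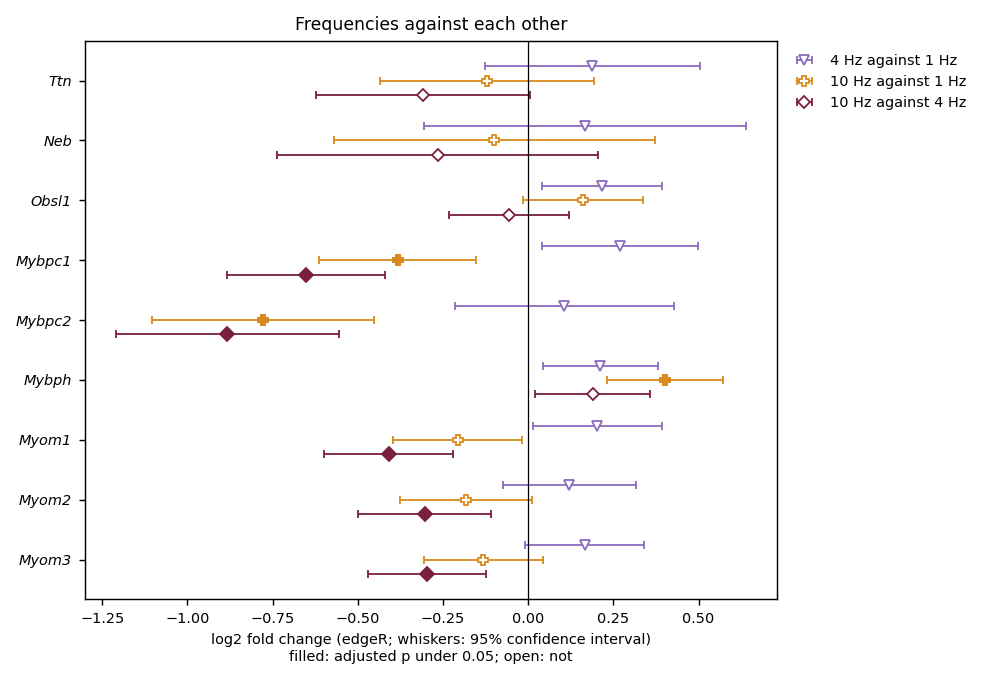
log2 fold change (horizontal axis) of each gene between frequencies, from edgeR, with 95% confidence intervals as whiskers and filled symbols at an adjusted p under 0.05. At 10 Hz against 4 Hz, Mybpc1 (-0.65), Mybpc2 (-0.88), and the 3 myomesins (-0.41 to -0.30) are filled, and no symbol is filled for 4 Hz against 1 Hz.

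The shares of the 3 family members in their summed TPM do not depend on the scaling between libraries. Mybph made up 84.4% ± 1.27 (SD, n = 6) of the sum in the controls, and 77.7% ± 4.33, 78.2% ± 2.04, and 86.9% ± 1.17 in tissues stimulated at 1, 4, and 10 Hz. Its share was therefore lower at 1 Hz and 4 Hz, where all 12 libraries lay below every control, and higher at 10 Hz, where 5 of 6 libraries lay above every control. In 2-sided exact permutation tests, adjusted over 18 comparisons, the p-values were 0.00649 for both 1 Hz and 4 Hz and 0.0146 for 10 Hz. The unadjusted p of 0.00216 at 1 Hz and 4 Hz is the smallest that 6 against 6 libraries can give.

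Mybpc1 took 12.03% ± 1.03 (SD, n = 6) of the sum in unstimulated tissue, and 17.0% ± 3.19, 16.5% ± 1.53, and 10.4% ± 1.20 with stimulation at 1, 4, and 10 Hz. It was higher than in every control in all 12 libraries at 1 Hz and 4 Hz (exact permutation test, adjusted p = 0.00649 for each), and its difference at 10 Hz did not pass (exact permutation test, adjusted p = 0.0563). Mybpc2 took 3.61% ± 0.39 in unstimulated tissue, and 5.32% ± 1.17, 5.22% ± 0.54, and 2.73% ± 0.23 with stimulation at the same frequencies. For Mybpc2, 5 of 6 libraries at 1 Hz and 6 of 6 at 4 Hz lay above every control, and 6 of 6 at 10 Hz lay below. All 3 of its differences passed the exact permutation test (adjusted p = 0.0111, 0.00649, and 0.00649). The 3 shares add up to the whole, so these tests are not separate results. Mean levels of Mybpc1 were 133 TPM in the controls, 129 TPM at 1 Hz, and 132 TPM at 4 Hz, those of Mybpc2 were 40.1, 40.5, and 41.8 TPM, and those of Mybph were 933, 591, and 635 TPM. At 10 Hz, the means were 106 TPM for Mybpc1, 27.7 TPM for Mybpc2, and 886 TPM for Mybph, all below those of the controls. Without the 4 libraries with a high mitochondrial share, the 6 differences at 1 Hz and 4 Hz kept their direction and passed, with that of Mybph at -4.07 and -5.08 percentage points.

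**Figure D4:**
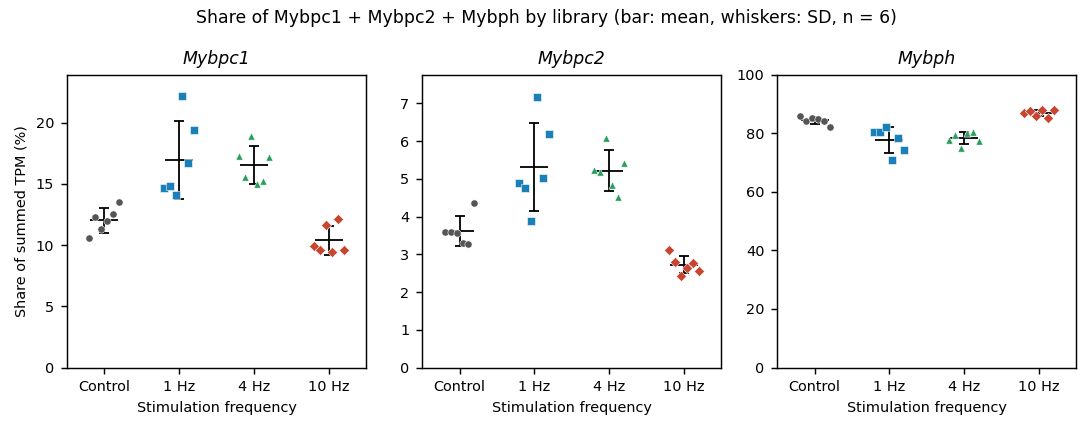
Share (percent, vertical axes from 0, scaled separately) of Mybpc1, Mybpc2, and Mybph in the summed TPM of the 3 genes in each library, with means as bars and SDs as whiskers (n = 6 per group). The mean share of Mybph is 84.4% in the control group, 77.7% with 1 Hz, 78.2% with 4 Hz, and 86.9% with 10 Hz, and Mybpc1 and Mybpc2 move the other way.

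The 3 myomesins, which hold thick filaments together at the M-band, had no call against the control at any frequency and were lower at 10 Hz than at 4 Hz. Myom1, the gene of myomesin 1, ran from 77.4 to 108 CPM (median 80.8) without stimulation, 66.4 to 102 CPM (median 82.5) with 1 Hz, 87.5 to 107 CPM (median 96.4) with 4 Hz, and 63.2 to 80.8 CPM (median 74.9) with 10 Hz. Myom2 ran from 589 to 726 CPM (median 652) without stimulation, 473 to 838 CPM (median 611) with 1 Hz, 611 to 742 CPM (median 710) with 4 Hz, and 502 to 622 CPM (median 544) with 10 Hz. Myom3, the gene of myomesin 3, ran from 68.1 to 82.5 CPM (median 72.0) without stimulation, 60.7 to 86.7 CPM (median 75.4) with 1 Hz, 74.0 to 93.7 CPM (median 80.1) with 4 Hz, and 57.2 to 72.0 CPM (median 69.6) with 10 Hz. The 4 groups overlapped for all 3 genes, with the exception of 10 Hz and 4 Hz, where Myom1 and Myom3 did not overlap, as was so for 8.1% of all genes, which lay wholly lower.

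The log2 fold change between 10 Hz and 4 Hz was -0.41 ± 0.093 (SE) for Myom1 (adjusted p = 0.000975), -0.30 ± 0.095 for Myom2 (adjusted p = 0.0109), and -0.30 ± 0.085 for Myom3 (adjusted p = 0.00618). The 3 calls held when any library of either group was left out and without the 4 libraries with a high mitochondrial share. They were lost in limma on log2(TPM + 1), where the median of all genes lay at 0.20 and Myom1 was at -0.24 (adjusted p = 0.164), Myom2 at -0.047 (adjusted p = 0.727), and Myom3 at -0.069 (adjusted p = 0.675). Relative to that median, the 3 genes were at -0.44, -0.25, and -0.27. Myl12a, which overlaps Myom1, was also lower at 10 Hz than at 4 Hz (log2 fold change -0.29, adjusted p = 0.0217 in edgeR). Myom1 passed at 4 Hz against the control without control replicate 6 (0.26, adjusted p = 0.0167) and with upper-quartile factors (0.22, adjusted p = 0.0490). In the main analysis against the control, the myomesins lay between -0.051 and -0.016 at 1 Hz, between 0.070 and 0.19 at 4 Hz, and between -0.23 and -0.15 at 10 Hz, with adjusted p from 0.0907 to 0.905. At 1 Hz, the 95% confidence intervals of the 3 log2 fold changes together reached from -0.25 to 0.17. Between 10 Hz and 1 Hz, Myom1 (adjusted p = 0.0356) and Myom2 (adjusted p = 0.0405) passed only without 1 Hz replicate 3, out of the 12 fits that left out 1 library of either group.

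The proportions of the myomesins among themselves were compared in the same way. Myom2 made up 79.3% ± 1.04 (SD, n = 6) of the summed TPM of the 3 genes in unstimulated tissue, and 78.5% ± 0.81, 78.3% ± 2.33, and 79.7% ± 0.83 with 1, 4, and 10 Hz. Myom1 made up 11.1% ± 0.82 in the controls and between 10.5% and 11.96% on average at the 3 frequencies, and Myom3 made up 9.60% ± 0.52 in the controls and between 9.72% and 9.91%. None of the 9 differences from the control passed the exact permutation test (adjusted p from 0.335 to 0.786).

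Myotube markers were counted in the same comparisons. Of the 9 markers, 7 were lower at 10 Hz than at 4 Hz, with a median log2 fold change of -0.45, and 0 were higher. Over all genes, 24.4% were lower there and 21.9% higher. At 10 Hz against 1 Hz, where 3 members were called, 1 marker was lower and 0 were higher, beside 13.1% and 14.8% of all genes. The summed level of the 9 markers ran from 14900 to 18500 TPM at 4 Hz and from 15100 to 17200 TPM at 10 Hz, and no marker was at 0. At 4 Hz against the control, 3 of the 9 were higher, and at 1 Hz and 10 Hz against the control 0 were called. The shares of all genes against the control were 19.2% higher and 18.1% lower at 1 Hz, and 27.5% and 23.9% at 4 Hz. Of 5 markers of undifferentiated myoblasts, 3 were higher and 2 lower at both 1 Hz and 4 Hz, with summed levels of 46.5 to 67.8 TPM in the controls and 51.9 to 91.7 TPM at 1 Hz. Of 5 cell cycle markers, 2 were higher at 10 Hz than at 4 Hz, and of 4 tested fibroblast markers 1 was higher and 1 lower. Against the control, 2 fibroblast markers were higher and 1 lower at both 1 Hz and 4 Hz, and of the cell cycle markers 1 was higher at 1 Hz and 1 higher and 2 lower at 4 Hz, where Mybph was lower. Among 4 osteoblast markers, Sp7 was near 0 and summed levels did not exceed 12.2 TPM. The part of these markers in the results was not tested.

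Titin and nebulin, the giant proteins of the sarcomere, were not called in any of the 6 comparisons. Ttn ran from 358 to 509 CPM (median 435) without stimulation, 303 to 651 CPM (median 434) with 1 Hz, 412 to 695 CPM (median 479) with 4 Hz, and 308 to 491 CPM (median 417) with 10 Hz. Neb ran from 226 to 345 CPM (median 288) without stimulation, 174 to 512 CPM (median 225) with 1 Hz, 216 to 400.2 CPM (median 301) with 4 Hz, and 179 to 324 CPM (median 248) with 10 Hz. All groups overlapped for both genes, and 1 Hz replicate 1 was the highest library of its group in both. The log2 fold changes of Ttn were 0.043, 0.23, and -0.078 for 1, 4, and 10 Hz, each ± 0.15 (SE) (adjusted p = 0.845, 0.211, and 0.968). Those of Neb were -0.078, 0.088, and -0.18 for the same frequencies, each ± 0.23 (adjusted p = 0.811, 0.765, and 0.931). The 95% confidence intervals were wide, from -0.27 to 0.36 for Ttn and from -0.55 to 0.39 for Neb at 1 Hz, so differences of that size could not be told from 0.

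The direction of the Ttn difference depended on the scale. On log2(TPM + 1), Ttn was lower at 1 Hz (-0.37, or -0.22 relative to the median of all genes, adjusted p = 0.0482, limma). For 4 Hz, where Ttn stood at -0.26 on that scale, it did not pass (adjusted p = 0.130). The median of all genes on that scale was -0.14 at 1 Hz and -0.21 at 4 Hz. In TPM, Neb exceeded Ttn by a ratio of 2.94 ± 0.43 (SD, n = 6) in unstimulated tissue, and of 3.20 ± 0.78, 3.24 ± 0.45, and 2.99 ± 0.39 with 1, 4, and 10 Hz. The log2 ratio of Ttn to Neb did not differ from the control past the threshold at any frequency (exact permutation test, adjusted p = 0.782, 0.708, and 0.842). In CPM, the same log2 ratio differed from the control by 0.18, 0.15, and 0.10, in the other direction (exact permutation test, adjusted p = 0.156 for each).

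Titin and nebulin varied together from library to library. The Pearson r of their log2 CPM was 0.918 over 24 libraries and 0.939 after the group means were removed, as a description of libraries that share depth and preparation. Among all tested genes, those most similar to Ttn included Ryr1 (r = 0.919) and Neb, and those most similar to Neb were Ttn, Flnc (r = 0.884), and Ryr1 (r = 0.883). Ryr1 encodes the calcium release channel of skeletal muscle and Flnc filamin C. An index of long transcripts, the median over 178 tested genes with a transcript length of at least 8 kb of the log2 deviation from each gene's mean, ran from -0.50 to 0.41 over the libraries. Neb correlated with this index at r = 0.548 (0.688 within groups), Ttn at 0.277 (0.506), and Mybpc2 at -0.551 (-0.461). The part of this index in the spread of Ttn and Neb was not tested.

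**Figure D5:**
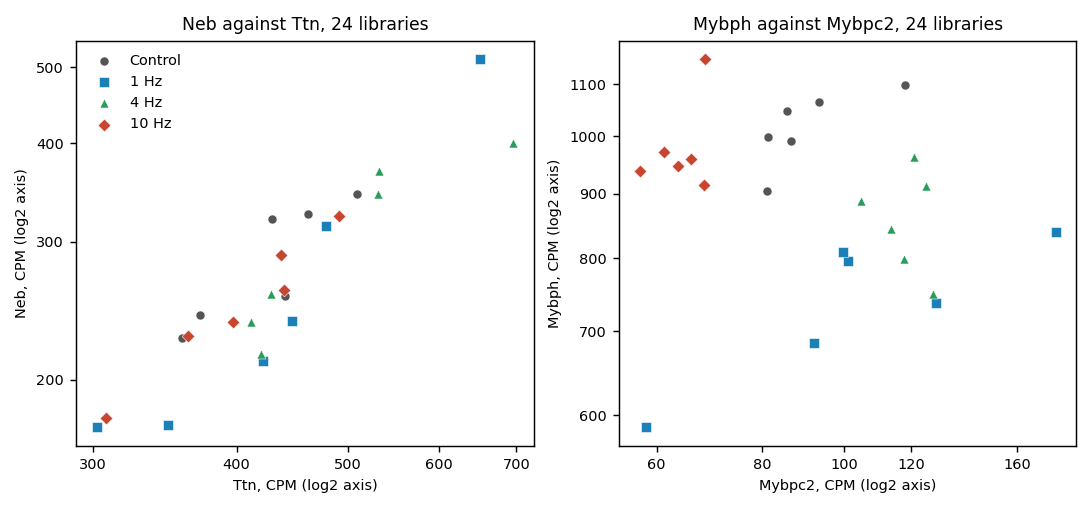
CPM of Neb against Ttn (left) and of Mybph against Mybpc2 (right) in the 24 libraries, on log2 axes, with a symbol for each group. Neb and Ttn follow a single line across the 4 groups (r = 0.918). In the right panel, the 10 Hz libraries lie at low Mybpc2 and, like the controls, at high Mybph (r = -0.15 over all libraries and 0.616 within groups). Mybph ran from 904 to 1099 CPM in the controls and from 914 to 1152 CPM at 10 Hz. The ranges of the 1 Hz and 4 Hz libraries overlap on both axes, and for Mybph 4 of the 6 libraries at 4 Hz lie above every 1 Hz library.

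Mybph did not follow the other members from library to library over all groups at once. Over all 24 libraries its r with the other 8 genes lay between -0.15 (Mybpc2) and 0.41 (Obsl1), whereas after the group means were removed it lay between 0.106 (Neb) and 0.630 (Myom2), with 0.273 for Ttn, 0.533 for Mybpc1, and 0.616 for Mybpc2. Mybpc1 and Mybpc2 were close to each other over all libraries (r = 0.919), and Mybpc1 was close to Myom1 (r = 0.912). The genes most similar to Mybpc2 were Casq1 (r = 0.965), the calcium store protein of fast muscle, Gyg (r = 0.956), which primes glycogen synthesis, and Camk2b (r = 0.951). Those of Mybpc1 included Camk2b (r = 0.942) and the fast calcium pump gene Atp2a1 (r = 0.928). Those of Mybph were Rbm38 (r = 0.908), which encodes an RNA binding protein, Fmnl1 (r = 0.899), and Fam171a2 (r = 0.880). Of the myomesins, Myom1 was most similar to Mybpc1, Myom2 to Actn2 (r = 0.909), the gene of a Z-disc actinin, and Myom3 to Alpk2 (r = 0.877).

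Obsl1 ran from 79.4 to 97.9 CPM (median 88.7) without stimulation, 73.8 to 99.1 CPM (median 85.6) with 1 Hz, 86.7 to 111 CPM (median 104) with 4 Hz, and 87.5 to 118 CPM (median 93.6) with 10 Hz. The 4 groups overlapped. Its log2 fold changes for 1, 4, and 10 Hz were -0.027, 0.19, and 0.13, each ± 0.086 (SE), and none passed (adjusted p = 0.827, 0.0649, and 0.756). Without the 4 libraries with a high mitochondrial share it passed at 4 Hz (0.26, adjusted p = 0.0103), and on the log2(TPM + 1) scale it was at -0.012 there (adjusted p = 0.949). It was the member with the only positive value at 10 Hz against the control. Its product also belongs to the 3M complex with Cul7, a ubiquitin ligase scaffold, and Ccdc8. Of 5 partners in that complex, Rbx1 was higher (log2 fold changes of 0.28 and 0.30 for 1 and 4 Hz, adjusted p = 0.0267 and 0.0126) and Ccdc8 was lower (-0.34 and -0.32, adjusted p = 0.0196 and 0.0198), and 0 were called at 10 Hz. Beside these 5 partners, 19.2% of all genes were higher and 18.1% lower at 1 Hz, and 27.5% and 23.9% at 4 Hz.

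The mean length of the transcripts assigned to each gene, taken from the ratio of its estimated count to its TPM, describes which isoforms were counted. For Ttn it was 20.8 ± 2.14 kb (SD, n = 6) in unstimulated tissue, and 23.7 ± 4.50, 23.2 ± 2.92, and 21.2 ± 1.33 kb with 1, 4, and 10 Hz, well under the longest annotated transcript of 107543 bases. For Neb it was 4.74 ± 0.52 kb in the controls and between 4.33 and 4.48 kb at the 3 frequencies. Mybph, with 3 annotated transcripts, stayed at 1.71 kb in all 4 groups. The groups overlapped for all 9 genes at each frequency, and among 7788 genes the groups at 1, 4, and 10 Hz lay wholly above the controls for 0.539%, 1.09%, and 0.0385% and wholly below them for 0.462%, 1.17%, and 0.103%. Among 7 regulators of muscle splicing, Rbm20, which regulates splicing of titin, was higher with both 1 Hz (log2 fold change 0.33, adjusted p = 0.00320) and 4 Hz (0.28, adjusted p = 0.00722), and its value for 10 Hz was -0.013 (adjusted p = 0.994). Rbfox1 was higher at 4 Hz (0.44, adjusted p = 0.0402), and the remaining 5 were not called against the control. Beside these 7 regulators, 19.2% of all genes were higher at 1 Hz and 27.5% at 4 Hz. The part of these regulators in the transcript lengths was not tested.

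Partners of the 9 genes were counted against the shares of all genes given above. Of 13 partners at the M-band and at the kinase region of titin, 1 was higher and 4 were lower at 1 Hz and at 4 Hz, and 1 was higher and 0 were lower at 10 Hz. Over all genes, 19.2% were higher and 18.1% lower at 1 Hz, and 27.5% and 23.9% at 4 Hz. The gene that was higher at all 3 frequencies was Fhl2, which encodes a LIM protein that binds titin (log2 fold changes of 1.29, 1.25, and 0.57, adjusted p = 9.62e-11, 9.07e-11, and 0.00337). Its mean level was 35.3 CPM without stimulation and 86.8, 84.2, and 52.6 CPM with 1, 4, and 10 Hz. Among those that were lower, Trim63, the gene of the ubiquitin ligase MuRF1, was at -0.44 at 1 Hz (adjusted p = 0.00253). Ank1, whose small muscle form lies in the sarcoplasmic reticulum, was at -0.37 at 1 Hz and -0.36 at 4 Hz (adjusted p = 0.00526 and 0.00488). Sqstm1, the autophagy receptor p62, was at -0.34 at 4 Hz (adjusted p = 0.000548). At 10 Hz against the control, the log2 fold changes of Trim63, Ank1, and Sqstm1 were -0.54, -0.31, and 0.041. None of these 3 was called there (adjusted p = 0.0781, 0.335, and 0.960).

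Of 12 partners of titin at the Z-disc and I-band, 1 was higher at 1 Hz (Ankrd1, 0.20, adjusted p = 0.0466) and 3 at 4 Hz, and 0 were lower at any frequency against the control. At 4 Hz these included Csrp3, the gene of muscle LIM protein (0.72, adjusted p = 0.000988), and Tcap, the gene of telethonin that caps the end of titin in the Z-disc (0.47, adjusted p = 0.0278). Of 11 tested genes of the thin filament and relatives of nebulin, Lmod2, which encodes a leiomodin that elongates thin filaments, was higher with 1 Hz and with 4 Hz (0.49 and 0.61, adjusted p = 0.00293 and 0.000221). Lasp1, a small relative of nebulin, was lower at 4 Hz (-0.36, adjusted p = 0.0374). Nebl, the closest relative of nebulin in the list, did not pass the filter on low counts.

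Of 12 tested genes of the thick filament and its assembly, 4 were higher and 1 lower at 4 Hz, 0 were higher and 1 lower at 1 Hz, and 0 were higher and 1 lower at 10 Hz. At 4 Hz, Mylpf, the fast regulatory light chain (0.57, adjusted p = 0.00749), and Myh8, the perinatal heavy chain (0.37, adjusted p = 0.0101), were higher. Myh2, the heavy chain of fast oxidative fibers, was lower with 4 Hz and with 10 Hz (-0.66 and -1.07, adjusted p = 0.00670 and 0.0380). At 1 Hz, Igfn1, a Z-disc protein, was lower (-0.51, adjusted p = 0.00677). Its value at 10 Hz was -0.52 and was not called (adjusted p = 0.194). When 10 Hz was compared with 4 Hz, 6 of these 12 genes, 7 of the 11 thin filament genes, 6 of the 12 Z-disc and I-band partners, and 5 of the 13 M-band partners were lower, beside 5 of the 9 members and 24.4% of all genes. Their median log2 fold changes were -0.45, -0.27, -0.30, and -0.19, against -0.30 for the 9 members and -0.053 for all genes.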

How the data were processed

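The data are RNA-seq values of 24 libraries of C2C12 tissues from the 60-min experiment, 6 per condition, grouped by the sample labels. Reads had been run through nf-core/rnaseq by the authors with Ensembl gene models of GRCm39. Their deposited salmon tables hold an estimated count for each gene, neither normalized nor filtered. The authors also deposited TPM per gene, which are divided by transcript length and add up to the same total in each library. Per the labels, RNA was poly(A) selected, and low-input samples, which are not named, were ribodepleted. The methods call the replicates biological. Where wells of 1 plate share a culture, p-values measure the spread between wells only.

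Estimated counts were rounded and tested with edgeR 4.0.16 in R 4.3.3 (filterByExpr with a minimum count of 10 and total of 15, TMM, robust quasi-likelihood F test, 1 fit of all 24 libraries). Genes were called at a Benjamini-Hochberg adjusted p under 0.05 over 13315 genes. The biological coefficient of variation was 14.8%, and both this spread and the depth of 8052369 to 18159144 counts enter the precision. The script was tested on simulated data. Shares in TPM and the ratio of Ttn to Neb were compared by 2-sided exact permutation tests. Alternatives were other scaling factors, filters, DESeq2 1.42.0, limma 3.58.1 on log2(TPM + 1) and log2(TPM + 0.1) for genes at 1 TPM in 6 libraries, a replicate block, 2-group fits, and each library left out.

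The members and gene lists were chosen with earlier results of these data known. Named partners were up to 2 genes per list, direction, and frequency with the smallest p among those called, and similar genes were the 3 with the highest r, of which some are not reported here. Partners that did not pass the filter and the genes Sp7, Cul7, and Myl12a are named outside this rule. Positions came from GENCODE M39 (GRCm39), in which 98.9% of gene identifiers were found, and promoter sequences from RefSeq (GRCm38.p6).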

Additional observations from a re-analysis of the deposited data

Results flagged for a closer look

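Of 36 groups of 6 libraries (9 genes in 4 conditions), 3 held a library whose gap to the next exceeded 0.625 of the range of its group, and chance alone gives about 1 in 20 groups. Control replicate 6 was the highest control for Mybpc1 (338 CPM) and for Mybpc2 (118 CPM), and it was the highest control for 8 of the 9 genes, the exception being Obsl1. At 10 Hz, replicate 3 was the highest library for Mybph (1152 CPM).

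Differences between frequencies passed the direct test in edgeR in 8 cases. At 10 Hz against 1 Hz, the log2 fold change was -0.38 for Mybpc1, -0.78 for Mybpc2, and 0.40 for Mybph. At 10 Hz against 4 Hz, it was -0.65 for Mybpc1, -0.88 for Mybpc2, -0.41 for Myom1, -0.30 for Myom2, and -0.30 for Myom3.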

How the results depend on the processing

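Results are given as main value first where it helps. Of 324 fits of members against the control that left out 1 library, 294 kept direction and side of the threshold, and of 270 under other settings, 234 did. The cause of each change below was not tested, except where fewer libraries were fitted.

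At 4 Hz, 1 member was higher in the main analysis. The count was 0 with size factors of DESeq2 (RLE), without a filter, in DESeq2, in limma on log2(TPM + 1) and log2(TPM + 0.1), and with a log2 fold change over 0.5 also required, 4 with upper-quartile factors, and 2 with only the 2 groups and without the 4 libraries with a high mitochondrial share. It ranged from 0 to 3 when 1 library was left out. The count lower at 4 Hz was 0 without those 4 libraries and with the fold change required. At 1 Hz, the count lower was 2 in both limma analyses and 0 with the fold change required, and the count higher ranged from 0 to 1 with 1 library left out (1 without 1 Hz replicate 3). At 10 Hz, the count lower was 2 with only the 2 groups, and ranged from 0 to 1 with 1 library left out. Between frequencies, 10 Hz against 4 Hz gave 3 in both limma analyses and 2 with the fold change required. Comparing 10 Hz with 1 Hz gave 1 with the fold change required, and 2 to 5 with 1 library left out. The count for 4 Hz against 1 Hz was 1 without the 4 libraries. Over all genes, 10 Hz against the control gave 5 calls in the main analysis, 58 with only the 2 groups, 52 in DESeq2, 3 with the replicate block, 0 in both limma analyses, and 20 without the 4 libraries. Comparing 4 Hz with 1 Hz gave 0 and, without those 4, 1408.

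Log2 fold changes that turned sign, apart from Mybpc2 at 1 Hz, were small in the main analysis or turned only on the TPM scale. With limma on log2(TPM + 1) and log2(TPM + 0.1), in that order, they were -0.37 and -0.38 for Ttn and -0.018 and -0.019 for Mybpc2 at 1 Hz. At 4 Hz, they were -0.26 and -0.27 for Ttn, -0.12 and -0.12 for Neb, -0.012 and -0.013 for Obsl1, -0.0072 and -0.0072 for Mybpc1, -0.040 and -0.042 for Myom1, -0.16 and -0.16 for Myom2, and -0.12 and -0.12 for Myom3. Upper-quartile factors gave 0.014 for Mybpc1 and 0.0047 for Myom1 at 1 Hz. Without the 4 libraries, Neb was at 0.13, Mybpc2 at -0.037, and Myom3 at 0.034 at 1 Hz. The main value of Mybpc2 there was 0.27. With 1 library left out, the ranges at 1 Hz were -0.10 to 0.12 for Ttn, -0.36 to 0.0078 for Neb, -0.081 to 0.0040 for Obsl1, -0.12 to 0.082 for Mybpc1, -0.10 to 0.058 for Myom1, -0.17 to 0.0045 for Myom2, and -0.075 to 0.013 for Myom3. At 4 Hz, that of Neb was -0.0061 to 0.15.

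The replicate numbers did not pair the samples. Over 36 pairs of libraries with the same number, the correlation of deviations from the group means had a median of -0.02 (-0.33 to 0.24), and 3 pairs exceeded 0.1. With the replicate number as a block, no count of called members changed, and the 8 family shares that passed (Mybpc1 4.94 at 1 Hz, 4.51 at 4 Hz percentage points, Mybpc2 1.70 at 1 Hz, 1.60 at 4 Hz, -0.89 at 10 Hz percentage points, Mybph -6.65 at 1 Hz, -6.12 at 4 Hz, 2.54 at 10 Hz percentage points) had an adjusted p of 0.0703 in exact tests, the smallest that 6 pairs can give there. With CPM in place of TPM, the share of Mybpc1 at 10 Hz differed by -3.08 percentage points (adjusted p = 0.0130, exact permutation test), and those of Myom1 and Myom2 at 10 Hz by 0.033 and -0.50. The log2 ratio of Ttn to Neb differed by 0.18, 0.15, and 0.10 at 1, 4, and 10 Hz. With 1 library left out, the share of Mybpc1 at 10 Hz differed by -2.0 to -1.35, that of Myom3 by -0.20 to 0.38 at 4 Hz and -0.014 to 0.23 at 10 Hz, and the log2 ratio of Ttn to Neb at 10 Hz by -0.091 to 0.023. Transcript lengths of Ttn, Neb, Mybpc1, Mybph, and Myom2 stayed within 1 SD when only genes with at least 1000 counts in every library set the scale. Obsl1, Mybpc2, Myom1, and Myom3 did not reach that count and were not checked. The check changed only the scale of each library, so it could not test how counts were assigned to transcripts.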
